A study of Mus musculus with 24 samples.

Results

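The genes described here were 40 genes of DNA replication, followed in the whole lung (left lobe) of male mice from birth to adulthood. They were chosen by name, as the genes whose proteins load and run the replication helicase, copy the DNA and supply its building blocks, and each was read from the brightest row of the array table that named it alone. All 40 had such a row, out of 19938 genes with a row of their own, and 2 of them (*Pcna* and *Tk1*) had 2 rows. The mice were of the C57Bl/6N Tac strain and were either wildtype (WT) or carried a transgene for *Scnn1b*, the beta subunit of the epithelial sodium channel (*Scnn1b*-Tg). The transgene is expressed in club cells, the secretory cells of the airways, which are a small part of the cells in a lobe. Lungs were taken on postnatal day (PND) 0, 3, 10 and 42 of both genotypes, the WT mice being littermates. Each of the 8 groups of genotype and age had 3 Affymetrix Mouse Gene 1.0 ST arrays, 24 in all, and each array held RNA pooled from several mice. For 23 arrays the labels list 2 animal numbers and for 1 array, *Scnn1b*-Tg PND 42 replicate 3, they list 1, whereas the methods describe pools of 3. The question put to the replication genes was how their RNA moved with age in each genotype and whether the genotypes differed at any age.

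DNA replication begins at origins marked by the origin recognition complex, where Cdc6 and Cdt1 load the ring-shaped MCM helicase and geminin (*Gmnn*) blocks reloading. GINS and Cdc45 then join the ring, primase and polymerase alpha start each strand, the clamp loader RFC places the sliding clamp PCNA for polymerases delta and epsilon, RPA covers single strands, and Fen1 and Lig1 finish the lagging strand. Most of these genes are transcribed as cells enter S phase, many of them through E2F factors, so their RNA is a common index of dividing cells. In the mouse, the lung divides its airspaces into alveoli largely after birth, and cell division declines as the lung matures.

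The proximal promoters of 8 members are shown because E2F is the factor best known for these genes and because some of the members that moved most in the arrays can be read beside others. The 8 are a choice and not a sample of the members. Each line gives 150 bases, from 120 before the start site to 30 after it, 5′ to 3′ on the gene's strand, from RefSeq on GRCm38.p6. Capitals mark the E2F letters TTTCGCGC, TTTGGCGC or TTTCCCGC and the CCAAT box, each on either strand. *Mcm3*, *Mcm6*, *Rfc3* and *Pole2* held E2F letters and rose or fell with age, *Orc1* held them and stayed dim, and *Prim1*, *Rrm2* and *Tyms*, which had the deepest falls of all members by PND 42, held none in this window. *Rfc4*, another member that moved widely, is not shown and held no E2F letters from 250 bases before its start site to 50 after it.
Mcm3: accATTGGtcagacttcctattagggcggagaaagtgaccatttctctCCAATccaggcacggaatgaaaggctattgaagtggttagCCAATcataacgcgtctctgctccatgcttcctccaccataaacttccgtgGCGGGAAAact
Mcm6: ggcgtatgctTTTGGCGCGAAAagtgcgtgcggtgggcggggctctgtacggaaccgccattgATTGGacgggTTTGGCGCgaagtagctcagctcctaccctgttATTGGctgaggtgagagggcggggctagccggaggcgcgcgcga
Rfc3: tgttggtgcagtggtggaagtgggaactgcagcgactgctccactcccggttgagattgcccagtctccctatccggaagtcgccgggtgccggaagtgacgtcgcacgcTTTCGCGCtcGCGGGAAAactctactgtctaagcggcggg
Pole2: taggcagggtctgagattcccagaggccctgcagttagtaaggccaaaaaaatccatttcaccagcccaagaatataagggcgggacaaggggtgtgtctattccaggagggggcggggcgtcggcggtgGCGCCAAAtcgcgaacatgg
Orc1: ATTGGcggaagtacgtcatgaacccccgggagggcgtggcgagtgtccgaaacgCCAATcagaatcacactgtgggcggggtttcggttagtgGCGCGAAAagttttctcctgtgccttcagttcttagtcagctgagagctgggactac
Prim1: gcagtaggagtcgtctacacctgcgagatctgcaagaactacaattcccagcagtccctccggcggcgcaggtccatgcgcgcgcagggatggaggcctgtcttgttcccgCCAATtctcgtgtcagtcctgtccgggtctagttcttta
Rrm2: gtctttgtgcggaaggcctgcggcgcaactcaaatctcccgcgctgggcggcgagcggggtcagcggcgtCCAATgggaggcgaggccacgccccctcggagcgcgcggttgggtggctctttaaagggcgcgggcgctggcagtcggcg
Tyms: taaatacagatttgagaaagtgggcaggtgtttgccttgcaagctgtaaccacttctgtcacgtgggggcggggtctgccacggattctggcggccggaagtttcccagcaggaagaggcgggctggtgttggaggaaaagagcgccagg

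The windows lie at chr1:20820283-20820432 (minus strand, *Mcm3*), chr1:128359676-128359825 (minus strand, *Mcm6*), chr5:151651179-151651328 (minus strand, *Rfc3*), chr12:69228161-69228310 (minus strand, *Pole2*), chr4:108579334-108579483 (plus strand, *Orc1*), chr10:128015095-128015244 (plus strand, *Prim1*), chr12:24708134-24708283 (plus strand, *Rrm2*) and chr5:30073596-30073745 (minus strand, *Tyms*). In *Mcm6* the first of its 3 E2F matches overlapped the second, which lay on the other strand. Of the 40 members, 32 had a window of 300 bases in the RefSeq table (250 before the start site to 50 after it). TTTCGCGC or TTTGGCGC stood in 9 of these 32 (28.1%) and in 1.15% of the 15614 genes that have both a window and an array row. TTTCCCGC stood in 6 of 32 (18.8%, against 1.59%), and 1 or more of the 3 forms in 12 of 32 (37.5%, against 2.68%). CCAAT stood in 20 of 32 (62.5%, against 38.2%), and TTTGAA, a part of the element used by many mitosis genes, in 4 of 32 (12.5%, against 15.2%). Over all 27025 windows of the table the shares were 0.833%, 1.11%, 1.91%, 37.9% and 18.1% in the same order. These are counts of letters in one window per gene and no measure of binding.

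Array medians lay between 4.79 and just under 5 on the log2 scale, and arrays of the same group correlated at 0.912 to 0.992 over all rows. *Scnn1b* itself read 6.37 to 8.22 over the 12 WT arrays and 9.62 to 10.94 over the 12 *Scnn1b*-Tg arrays, so every array matched its genotype label. Of the members, 38 lay above the 95th percentile (4.64) of 1015 olfactory receptor genes, which stand here for genes that lung does not use. *Orc1* and *Cdc6* did not, and no group mean of either passed 5. *Pcna*, the clamp, had a mean of 9.56 over the 24 arrays. Levels of different genes depend on their probes, so they were read here only against that background and not ranked.

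Age moved most of the 40 genes together. In WT lungs their RNA rose from PND 0 to PND 3, stood near that level at PND 10 and fell by PND 42. In *Scnn1b*-Tg lungs 19 members passed by PND 3 beside 30 in WT lungs, a difference that no member passed when tested itself, most of the highest means came at PND 10, and the members fell by PND 42 as well. Over these age comparisons 39 members passed the test at least once, and 24 of them at 2-fold or more, while *Rfc1*, the large subunit of the clamp loader, never passed. The share of all genes that passed at least once was not counted. It is large, since from PND 0 to PND 42 in WT lungs alone 33% of all genes fell. In whole-lobe RNA, fewer dividing cells and less RNA of these genes per cell cannot be told apart.

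**Figure D1:**
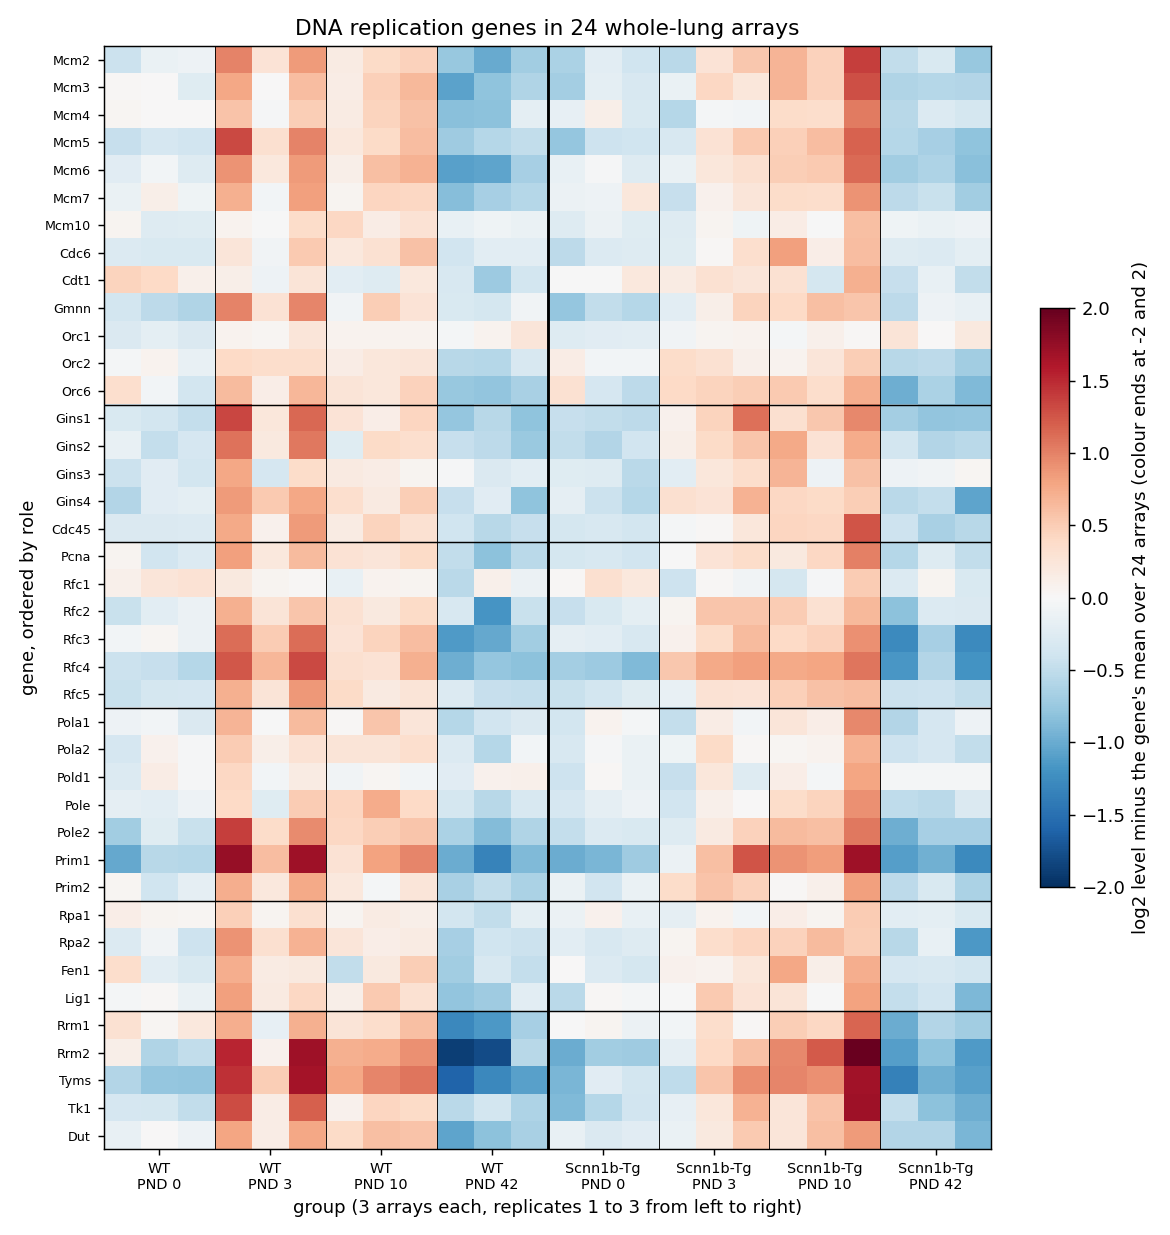
Level of the 40 members (rows, grouped by role) in each of the 24 arrays (columns, 3 per group), as log2 level minus the gene's mean over all arrays. By the mean over the members the reddest arrays are *Scnn1b*-Tg PND 10 replicate 3 (0.906) and WT PND 3 replicates 1 and 3 (0.800 and 0.734). WT PND 3 replicate 2 (0.161) is paler than the WT arrays at PND 10 (0.189 to 0.423). Arrays at PND 42 are the bluest in most rows, while *Rfc1*, *Cdt1* and *Orc1* do not follow the course of the other members.

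Over the first interval, birth to PND 3, WT lungs had 30 of the 40 members higher and none lower, at an adjusted p of at most 0.05 by limma with Benjamini-Hochberg adjustment over all tested rows, against 21.8% of all genes that rose. Of these, 11 rose at least 2-fold, against 1.88% of all genes. The median change of the members was 0.70 on the log2 scale, beside 0.07 for all genes. The largest rises were those of *Prim1*, the catalytic primase subunit (2.06, SE 0.30, adjusted p = 1.13e-05), *Tyms*, the thymidylate synthase (1.92, SE 0.30, adjusted p = 2.63e-05), *Rfc4* of the clamp loader (1.57, SE 0.17, adjusted p = 2.58e-07) and *Rrm2*, the S-phase subunit of ribonucleotide reductase (1.42, SE 0.36, adjusted p = 0.0028). The 10 that did not pass were *Mcm4*, *Mcm10*, *Cdt1*, *Rfc1*, *Pola2*, *Pold1*, *Pole*, *Rpa1*, *Fen1* and *Rrm1*. In 38 of 40 members the WT arrays averaged higher at PND 3, the others being *Cdt1* and *Rfc1*. WT PND 3 replicate 2 read below both other arrays of its group in 38 members, and without it 34 members rose, 17 of them 2-fold. Without WT PND 3 replicate 1 these counts were 24 and 9, and without replicate 3 they were 23 and 10. In these settings 7187 to 8713 of 19938 genes passed in either direction.

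Over the same 3 days 19 members rose in *Scnn1b*-Tg lungs and none fell, against 25% of all genes, and 4 rose at least 2-fold, against 2.07%. Those 4 were *Rfc4* (1.47, SE 0.17, adjusted p = 4.59e-07), *Prim1* (1.45, SE 0.30, adjusted p = 5.03e-04), *Rrm2* (1.07, SE 0.36, adjusted p = 0.0178) and *Gins1*, a GINS subunit (1.04, SE 0.23, adjusted p = 8.79e-04). The median change was 0.47, beside 0.07 for all genes. Without *Scnn1b*-Tg PND 3 replicate 3, the array of its group with the most members at their highest, 11 members rose and 2 of them 2-fold. Without *Scnn1b*-Tg PND 3 replicate 1, the low array, these counts were 25 and 6, and without replicate 2 they were 14 and 3. In these settings 7798 to 8832 of 19938 genes passed in either direction.

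From PND 3 to PND 10 few members passed within either genotype. In WT lungs *Rfc4* alone fell (-0.63, SE 0.17, adjusted p = 0.0307), 1 of 40 members against 1.55% of all genes, and 36 of 40 averaged lower, with a median of -0.21. That call was lost without WT PND 3 replicate 1 or 3 or without WT PND 10 replicate 1 or 2. Without WT PND 3 replicate 2, 5 members fell, beside 583 of 19938 genes that passed in either direction. In *Scnn1b*-Tg lungs *Mcm4* of the helicase (0.81, SE 0.20, adjusted p = 0.0305) and *Pole*, the catalytic subunit of polymerase epsilon (0.66, SE 0.17, adjusted p = 0.0333), rose, 2 of 40 against 1.84% of all genes. There 38 of 40 averaged higher, with a median of 0.38. No *Scnn1b*-Tg member passed without *Scnn1b*-Tg PND 3 replicate 1 or without *Scnn1b*-Tg PND 10 replicate 3. Without *Scnn1b*-Tg PND 3 replicate 3, 5 passed, beside 573 of 19938 genes that passed in either direction. The *Scnn1b*-Tg median was 0.07 without 3 arrays that stood apart, chosen after seeing the data (WT PND 3 replicate 2, *Scnn1b*-Tg PND 3 replicate 1 and *Scnn1b*-Tg PND 10 replicate 3). In that setting 13 WT members fell, with a median of -0.41, beside 634 of 19938 genes that passed in either direction.

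From PND 10 to PND 42 the members fell in both genotypes. In WT lungs 33 of 40 fell and none rose, against 20% of all genes that fell, and 14 fell at least 2-fold, against 3.37%. With the transgene 35 fell, against 19.3%, and 22 fell at least 2-fold, against 3.32%. The medians were -0.86 in WT and -1.06 in *Scnn1b*-Tg lungs, each beside -0.02 for all genes. *Tyms* fell by 2.27 (SE 0.30, adjusted p = 9.32e-06) in WT lungs and fell by 2.32 (SE 0.30, adjusted p = 7.17e-06) in *Scnn1b*-Tg lungs. *Rrm2* fell by 2.19 (SE 0.36, adjusted p = 7.78e-05) and fell by 2.40 (SE 0.36, adjusted p = 3.08e-05), and *Prim1* fell by 1.76 (SE 0.30, adjusted p = 1.35e-04) and fell by 2.26 (SE 0.30, adjusted p = 9.50e-06), in the same order. *Orc1*, *Gins3*, *Rfc1* and *Pold1* did not pass in either genotype, with changes of 0.02, -0.30, -0.18 and 0.01 in WT and 0.12, -0.43, -0.22 and -0.33 in *Scnn1b*-Tg lungs. *Cdt1*, *Gmnn* and *Fen1* fell in *Scnn1b*-Tg lungs and did not pass in WT lungs, and *Mcm10* the reverse, differences between genotypes that did not pass.

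Against the day of birth, which shares its arrays with the intervals above, WT lungs at PND 10 had 21 members higher (20.1% of all genes) and 3 of them 2-fold higher (1.59%), namely *Tyms* (1.65, SE 0.30, adjusted p = 1.73e-04), *Prim1* (1.40, SE 0.30, adjusted p = 8.35e-04) and *Rrm2* (1.11, SE 0.36, adjusted p = 0.0159). *Scnn1b*-Tg lungs at PND 10 had 36 members higher (24.4% of all genes) and 13 of them 2-fold higher (3.05%), led by *Rrm2* (2.19, SE 0.36, adjusted p = 3.44e-05), *Prim1* (2.02, SE 0.30, adjusted p = 1.32e-05), *Tyms* (1.69, SE 0.30, adjusted p = 1.06e-04), *Rfc4* (1.64, SE 0.17, adjusted p = 1.17e-07) and *Tk1*, the thymidine kinase of S phase (1.45, SE 0.30, adjusted p = 3.97e-04). Without *Scnn1b*-Tg PND 10 replicate 3 that second count was 8, where 9168 of 19938 genes passed in either direction at any fold. By PND 42 the WT level had fallen below that at birth in 14 members, close to the 33% of all genes that were lower, and *Orc1* was higher (23.8% of all genes were). Only *Rrm1*, the large subunit of ribonucleotide reductase (-1.22, SE 0.22, adjusted p = 8.23e-05), and *Rrm2* (-1.08, SE 0.36, adjusted p = 0.0147) were 2-fold lower (9.25% of all genes), and *Rrm2* lost that call without WT PND 0 replicate 1 or without WT PND 42 replicate 1 or 2. At PND 42 *Scnn1b*-Tg lungs had 7 members lower than at birth (30.8% of all genes) and *Orc1* higher (23.2%). None of the 7 was 2-fold lower, 1 member was without *Scnn1b*-Tg PND 42 replicate 2, and 4 were lower without *Scnn1b*-Tg PND 42 replicate 3. In these 2 settings 10389 and 9147 of 19938 genes passed in either direction.

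**Figure D2:**
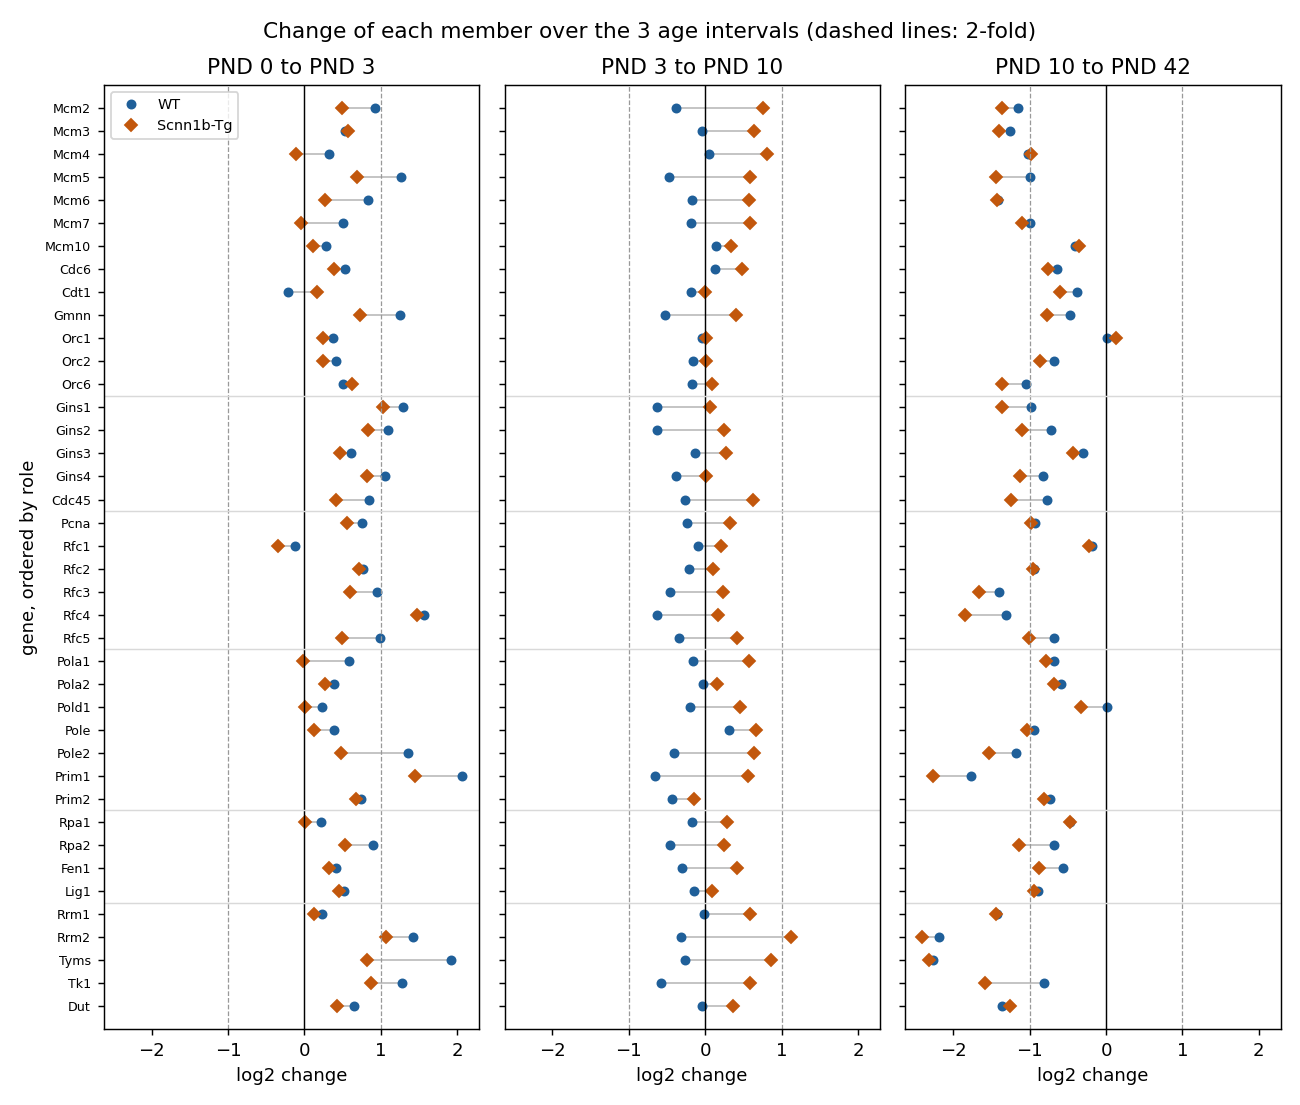
Log2 change of each member over the 3 age intervals, with WT as circles and *Scnn1b*-Tg as diamonds joined by a line, and dashed lines at 2-fold. Nearly all points lie right of 0 from PND 0 to PND 3 and left of 0 from PND 10 to PND 42, while from PND 3 to PND 10 most WT points lie left of 0 (36 of 40) and most *Scnn1b*-Tg points right of it (38 of 40).

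The helicase and its loading factors (13 members) included 6 subunits of the MCM ring. *Mcm2* read 5.84, 6.13 and 6.16 in the 3 WT arrays at PND 0, 7.25, 6.54 and 7.12 at PND 3, 6.42, 6.64 and 6.73 at PND 10 and 5.5, 5.25 and 5.57 at PND 42. In *Scnn1b*-Tg arrays it read 5.63, 6.06 and 5.87 at PND 0, 5.73, 6.53 and 6.8 at PND 3, 6.95, 6.72 and 7.64 at PND 10 and 5.77, 5.96 and 5.51 at PND 42. All 6 arrays at PND 10 lay above all 6 at PND 42, and *Mcm2* fell by 1.16 (SE 0.24, adjusted p = 9.01e-04) in WT and fell by 1.36 (SE 0.24, adjusted p = 1.95e-04) in *Scnn1b*-Tg lungs. *Mcm5* was the ring subunit with the largest WT rise, from 5.43, 5.56 and 5.52 at PND 0 to 7.21, 6.21 and 6.89 at PND 3 (1.27, SE 0.22, adjusted p = 7.33e-05), and it read 6.11, 6.28 and 6.52 at PND 10 and 5.18, 5.32 and 5.4 at PND 42. Its *Scnn1b*-Tg arrays read 5.13, 5.48 and 5.5 at PND 0, 5.57, 6.19 and 6.42 at PND 3, 6.38, 6.51 and 7.07 at PND 10 and 5.32, 5.23 and 5.1 at PND 42, highest at PND 10 with no overlap with PND 0 or PND 42. *Mcm6* fell 2-fold by PND 42 in both genotypes (-1.42, SE 0.19, adjusted p = 1.01e-05 in WT and -1.43, SE 0.19, adjusted p = 9.47e-06 in *Scnn1b*-Tg lungs), as did *Mcm3* (-1.26 and -1.41). *Mcm4* fell 2-fold in WT lungs (-1.02, and -0.98 in *Scnn1b*-Tg lungs) and *Mcm7* in *Scnn1b*-Tg lungs (-1.10, and just under 2-fold in WT lungs), and all 4 changes passed.

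Among the loading factors, geminin (*Gmnn*), the inhibitor of loading, rose in WT lungs by PND 3, as most subunits of the MCM ring did. Its WT arrays read 4.77, 4.62 and 4.53 at PND 0, 6.13, 5.43 and 6.12 at PND 3, 5.06, 5.63 and 5.41 at PND 10 and 4.84, 4.78 and 5.07 at PND 42, and the rise to PND 3 was 1.25 (SE 0.19, adjusted p = 1.18e-05). The *Scnn1b*-Tg arrays read 4.36, 4.64 and 4.57 at PND 0, 4.92, 5.25 and 5.58 at PND 3, 5.53, 5.74 and 5.69 at PND 10 and 4.61, 5.04 and 4.99 at PND 42. *Orc6*, the smallest subunit of the origin recognition complex, fell 2-fold from PND 10 to PND 42 in WT (-1.05, SE 0.19, adjusted p = 1.90e-04) and in *Scnn1b*-Tg lungs (-1.36, SE 0.19, adjusted p = 1.17e-05), and *Orc2*, another subunit, fell by less (-0.69 and -0.86). *Orc1*, the subunit that is made anew in each cycle in cultured cells, stayed between 3.90 and 4.44 in all 24 arrays, the range of olfactory receptor genes, and within it passed a small rise from PND 0 to PND 3 (0.37 in WT and 0.25 in *Scnn1b*-Tg lungs). *Cdc6*, the other dim member, rose in WT lungs by PND 3 (0.53, SE 0.16, adjusted p = 0.0116) and fell by PND 42 in both genotypes (-0.64 and -0.76). *Cdt1*, the loading partner of Cdc6, had its highest WT mean at PND 0 and a change of -0.22 to PND 3 that did not pass. *Mcm10*, which helps to start the helicase, passed only from PND 10 to PND 42 in WT lungs among the consecutive intervals (-0.40, SE 0.14, adjusted p = 0.0283).

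GINS and Cdc45 (5 members), the partners that turn the loaded ring into a moving helicase, all rose in WT lungs by PND 3, and 3 of the 4 GINS genes at 2-fold. Of all genes 21.8% rose and 1.88% rose 2-fold. *Gins1* read 4.76, 4.69 and 4.58 in WT arrays at PND 0 and 6.4, 5.29 and 6.21 at PND 3 (1.29, SE 0.23, adjusted p = 1.04e-04), then 5.33, 5.19 and 5.48 at PND 10 and 4.28, 4.5 and 4.25 at PND 42. In *Scnn1b*-Tg arrays *Gins1* read 4.59, 4.57 and 4.53 at PND 0, 5.14, 5.5 and 6.16 at PND 3, 5.38, 5.6 and 6.02 at PND 10 and 4.37, 4.27 and 4.28 at PND 42. The 3 arrays at PND 42 lay below those of every other age in both genotypes. *Gins2* rose by 1.10 (SE 0.20, adjusted p = 1.30e-04) and *Gins4* by 1.05 (SE 0.17, adjusted p = 2.77e-05) in WT lungs, and without WT PND 3 replicate 1 both lay just below 2-fold (0.94 and 0.98). *Cdc45* read 5.06, 5.05 and 5.07 at PND 0 and 6.1, 5.43 and 6.2 at PND 3 in WT lungs (0.85, SE 0.18, adjusted p = 7.09e-04). Its *Scnn1b*-Tg arrays reached 5.77, 5.76 and 6.6 at PND 10 from 5, 5.02 and 4.97 at birth and returned to 4.93, 4.69 and 4.79 at PND 42 (-1.24, SE 0.18, adjusted p = 2.79e-05 over the last interval). *Gins3* moved least of the complex and passed in 1 of the 6 consecutive intervals, the first in WT lungs (0.61, SE 0.21, adjusted p = 0.0231).

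The clamp and its loader (6 members) held *Rfc4*, which had the lowest p of all members over the first interval in WT lungs. *Rfc4* read 5.58, 5.55 and 5.44 at PND 0, 7.26, 6.67 and 7.33 at PND 3, 6.34, 6.3 and 6.73 at PND 10 and 5.03, 5.24 and 5.19 at PND 42 in WT arrays. In *Scnn1b*-Tg arrays it read 5.34, 5.28 and 5.13 at PND 0, 6.55, 6.77 and 6.84 at PND 3, 6.77, 6.8 and 7.08 at PND 10 and 4.85, 5.43 and 4.82 at PND 42. In both genotypes every array at PND 3 and PND 10 lay above every array at PND 0 and PND 42, and the change to PND 42 was -1.30 (SE 0.17, adjusted p = 6.25e-06) in WT and -1.85 (SE 0.17, adjusted p = 1.19e-07) in *Scnn1b*-Tg lungs. *Rfc3* fell 2-fold in both genotypes as well (-1.40 and -1.66), *Rfc5* in *Scnn1b*-Tg lungs (-1.01, SE 0.13, adjusted p = 6.96e-06), and *Rfc2* by slightly less than 2-fold in each (-0.94 and -0.95). *Rfc1*, the loader's large subunit, ranged from 6.24 to 7.29 with no change that passed. *Pcna* read 9.62, 9.18 and 9.29 at PND 0 and 10.38, 9.77 and 10.2 at PND 3 in WT arrays (0.75, SE 0.18, adjusted p = 0.00148), and 9.07, 8.75 and 9.02 at PND 42 after 9.86, 9.8 and 9.95 at PND 10 (-0.92, SE 0.18, adjusted p = 3.73e-04). The second row that names *Pcna* gave 0.99 and -0.86 for the same intervals, both past the threshold.

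Of the polymerases and primase (7 members), *Prim1* had the widest course. The 3 WT arrays read 5.35, 5.81 and 5.8 at PND 0, 8.11, 6.98 and 8.06 at PND 3, 6.66, 7.17 and 7.35 at PND 10 and 5.38, 5.03 and 5.48 at PND 42. The *Scnn1b*-Tg arrays read 5.38, 5.46 and 5.66 at PND 0, 6.25, 6.97 and 7.63 at PND 3, 7.26, 7.21 and 8.07 at PND 10 and 5.26, 5.41 and 5.09 at PND 42. No array at PND 3 or PND 10 overlapped those at PND 0 or PND 42 in either genotype, and within PND 3 the spread was 0.64 (SD, n = 3) in WT and 0.69 (SD, n = 3) in *Scnn1b*-Tg lungs. *Prim2*, the large primase subunit, moved less than its partner, rising by 0.75 (SE 0.18, adjusted p = 0.00174) in WT and 0.68 (SE 0.18, adjusted p = 0.00354) in *Scnn1b*-Tg lungs. *Pole2*, the second subunit of polymerase epsilon, rose 2-fold in WT lungs (1.35, SE 0.20, adjusted p = 1.27e-05), from 4.55, 5 and 4.79 to 6.62, 5.6 and 6.18, and read 4.77, 4.97 and 4.93 and then 4.98, 5.42 and 5.7 in *Scnn1b*-Tg lungs, where the change of 0.48 did not pass. It fell 2-fold by PND 42 in both (-1.18 and -1.53). *Pole* itself fell 2-fold in *Scnn1b*-Tg lungs (-1.03, SE 0.17, adjusted p = 9.73e-05). In WT lungs *Pole* fell by slightly less than 2-fold, from a group mean of 5.32 at PND 10 to 4.38 at PND 42. *Pola1* and *Pola2*, of the polymerase that extends primers, fell by PND 42 without reaching 2-fold (-0.69 and -0.59 in WT, -0.79 and -0.68 in *Scnn1b*-Tg lungs). *Pold1*, the catalytic subunit of polymerase delta, passed in no consecutive interval and was higher at PND 10 than at birth in *Scnn1b*-Tg lungs (0.47, SE 0.19, adjusted p = 0.0446).

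Single-strand binding and lagging-strand genes (4 members) gave 1 call at 2-fold. That was *Rpa2*, the middle subunit of RPA, in *Scnn1b*-Tg lungs from PND 10 to PND 42 (-1.14, SE 0.18, adjusted p = 5.34e-05), where its arrays read 7.2, 7.36 and 7.22 and then 6.18, 6.59 and 5.59. Of all genes 3.32% fell 2-fold in that comparison. In WT lungs *Rpa2* rose to PND 3 (0.89, SE 0.18, adjusted p = 3.43e-04) and fell by PND 42 (-0.68, SE 0.18, adjusted p = 0.00576). *Rpa1*, the large subunit, is also used in repair outside S phase and changed by -0.47 and -0.47 over the last interval, both passing. *Lig1*, the ligase that joins Okazaki fragments, fell by 0.89 (SE 0.21, adjusted p = 0.00307) in WT and fell by 0.94 (SE 0.21, adjusted p = 0.00193) in *Scnn1b*-Tg lungs. *Fen1*, the nuclease that trims flaps, passed only in *Scnn1b*-Tg lungs over that interval (-0.88, SE 0.22, adjusted p = 0.00375), with -0.56 (SE 0.22, adjusted p = 0.0553) in WT lungs, and the difference between these changes did not pass.

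Nucleotide supply (5 members) held the deepest falls. *Rrm2* read 6.53, 5.81 and 5.92 at PND 0, 7.94, 6.49 and 8.1 at PND 3, 7.12, 7.15 and 7.32 at PND 10 and 4.53, 4.63 and 5.86 at PND 42 in WT arrays. In *Scnn1b*-Tg arrays it read 5.42, 5.71 and 5.7 at PND 0, 6.23, 6.81 and 7 at PND 3, 7.38, 7.64 and 8.39 at PND 10 and 5.31, 5.61 and 5.28 at PND 42. WT PND 3 replicate 2 (6.49) overlapped the WT arrays of PND 0, and WT PND 42 replicate 3 (5.86) stood above the other 2 arrays of its group. *Tyms*, which makes thymidylate, read 5.52, 5.33 and 5.31 at PND 0, 7.56, 6.59 and 7.77 at PND 3, 6.88, 7.07 and 7.17 at PND 10 and 4.5, 4.81 and 5.01 at PND 42 in WT arrays. Its *Scnn1b*-Tg arrays read 5.19, 5.88 and 5.74 at PND 0, 5.59, 6.66 and 7.03 at PND 3, 7.08, 7.01 and 7.78 at PND 10 and 4.75, 5.14 and 5.02 at PND 42, so that PND 3 overlapped PND 0 there and not in WT lungs. *Rrm1* did not pass from PND 0 to PND 3 (0.24 in WT) yet fell 2-fold by PND 42 in both genotypes (-1.43, SE 0.22, adjusted p = 3.23e-05 and -1.44, SE 0.22, adjusted p = 3.26e-05). *Tk1*, which salvages thymidine, rose 2-fold in WT lungs by PND 3 (1.28, SE 0.30, adjusted p = 0.00142, from 4.94, 4.92 and 4.78 to 6.57, 5.42 and 6.47) and fell 2-fold by PND 42 in *Scnn1b*-Tg lungs (-1.59, SE 0.30, adjusted p = 3.09e-04, from 5.52, 5.84 and 6.96 to 4.8, 4.45 and 4.29). The second *Tk1* row gave 1.20 and -1.62 for those changes. *Dut*, which keeps uracil out of DNA, fell 2-fold in both (-1.36, SE 0.18, adjusted p = 7.04e-06 and -1.26, SE 0.18, adjusted p = 1.79e-05).

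**Figure D3:**
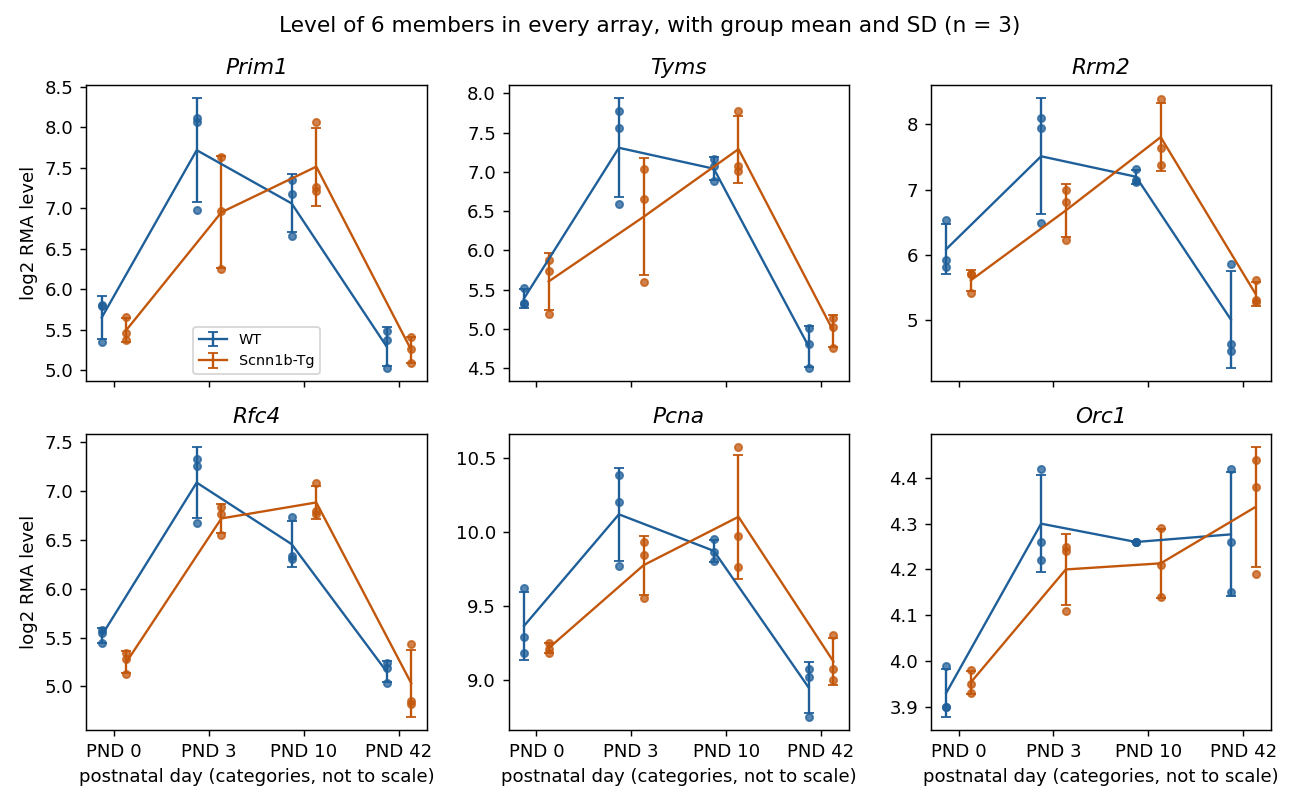
Log2 level of 6 members in every array (points), with the group mean and SD (lines and bars, n = 3) for WT and *Scnn1b*-Tg lungs, and an axis of its own for each gene. *Prim1*, *Tyms*, *Rrm2*, *Rfc4* and *Pcna* peak at PND 3 in WT and PND 10 in *Scnn1b*-Tg lungs, while *Orc1* stays between 3.90 and 4.44.

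The age of the highest group mean differed between the genotypes for most members, as a description of means. In WT lungs it was PND 3 for 34 of 40 members, PND 10 for *Mcm4*, *Mcm10*, *Cdc6* and *Pole*, and PND 0 for *Cdt1* and *Rfc1*. With the transgene it was PND 10 for 36, PND 3 for *Cdt1* and *Prim2*, PND 0 for *Rfc1* and PND 42 for *Orc1*. A WT peak at PND 3 was seen in 23.6% of all genes and a *Scnn1b*-Tg peak at PND 10 in 19.6%. Both held for 32 members (80%) and for 8.59% of all genes. Leaving out *Scnn1b*-Tg PND 10 replicate 3 made it 30 at PND 10 and 8 at PND 3, and leaving out WT PND 3 replicate 1 made it 28 at PND 3 and 10 at PND 10. With the 3 arrays that stood apart left out, chosen after seeing the data, 36 WT members peaked at PND 3, and 24 *Scnn1b*-Tg members peaked at PND 10 and 14 at PND 3. The members do not give independent votes here, since they deviated together: an array's deviation from its group mean correlated between a member and the mean of the other 39 at a median of 0.78 over the 24 arrays (0.25 to 0.93).

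Between genotypes at the same age no member passed the test by limma. At PND 0 the *Scnn1b*-Tg arrays averaged lower in 32 of 40 members with a median of -0.12, none passed (0.0201% of all genes did) and none had an unadjusted p below 0.05. The largest difference there was that of *Rrm2* (-0.48, adjusted p = 1), and *Rrm2*, *Rfc3*, *Rfc4*, *Cdc45* and *Dut* did not overlap between genotypes (5 of 40 lower without overlap, against 7.18% of all genes). At PND 42 18 of 40 averaged lower, the median was 0.02, none passed (0.963% of all genes did) and none had an unadjusted p below 0.05. The 95% interval of the difference lay within 2-fold either way for 39 of 40 members at PND 0 and at PND 42, *Rrm2* having the widest, 0.74 either side of its estimate.

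At PND 3 39 of 40 members averaged lower with the transgene, with a median difference of -0.35 and *Cdt1* as the exception. None passed (0.0451% of all genes did), and 18 had an unadjusted p below 0.05, against 4.02% of all genes in that direction. The lowest p belonged to *Pole2* (-0.77, SE 0.20, adjusted p = 0.307), *Rfc5* (-0.48, SE 0.13, adjusted p = 0.356), *Gmnn* (-0.65, SE 0.19, adjusted p = 0.362), *Mcm5* (-0.71, SE 0.22, adjusted p = 0.44), *Rfc3* (-0.55, SE 0.19, adjusted p = 0.513) and *Tyms* (-0.88, SE 0.30, adjusted p = 0.536). *Pole2* read 6.62, 5.6 and 6.18 in the WT and 4.98, 5.42 and 5.7 in the *Scnn1b*-Tg arrays, which overlapped through WT replicate 2. Only *Mcm4* and *Rfc1* did not overlap (2 of 40, against 5.93% of all genes). These calls changed with WT PND 3 replicate 2: without it the median was -0.55 and 5 members passed (*Pole2*, *Rfc5*, *Gmnn*, *Mcm5* and *Cdc45*, named after their values were seen, with adjusted p from 0.0164 to 0.0442), beside 0.853% of all genes, and *Pole2* passed at 2-fold. Without *Scnn1b*-Tg PND 3 replicate 1, the low array of the other group, the median was -0.24 and none passed. With array weights 6 members passed, beside 1.83% of all genes. There WT PND 3 replicates 1, 2 and 3 had weights of 2.49, 0.63 and 0.68, in a range of 0.36 to 3.33 over the arrays. Thus replicate 1, the highest of its group in 27 members, weighed most in the WT mean. The 95% interval of the difference lay within 2-fold either way for 31 of 40 members at PND 3.

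At PND 10 37 of 40 averaged higher in *Scnn1b*-Tg lungs, the opposite sign, with a median of 0.25. None passed (0.436% of all genes did), and 6 had an unadjusted p below 0.05, against 4.14% of all genes in that direction: *Rfc4* (0.43, SE 0.17, adjusted p = 0.407), *Gins2* (0.45, SE 0.20, adjusted p = 0.52), *Fen1* (0.48, SE 0.22, adjusted p = 0.533), *Cdc45* (0.40, SE 0.18, adjusted p = 0.543), *Rfc5* (0.28, SE 0.13, adjusted p = 0.552) and *Mcm2* (0.51, SE 0.24, adjusted p = 0.564). *Rfc4*, *Rfc5*, *Pole2*, *Rpa2* and *Rrm2* did not overlap between the genotypes (5 of 40, against 8.93% of all genes). *Scnn1b*-Tg PND 10 replicate 3 read above both other arrays of its group in 33 members, and without it the median was 0.07 and 26 of 40 averaged higher. For 36 of 40 members the 95% interval of the difference at PND 10 lay within 2-fold either way.

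**Figure D4:**
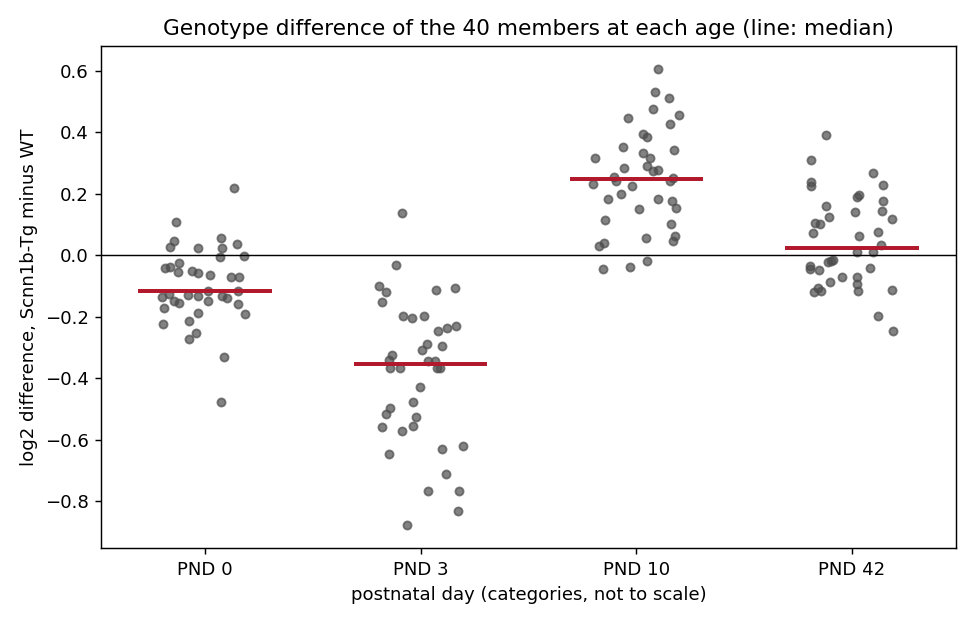
Difference of *Scnn1b*-Tg minus WT on the log2 scale for each of the 40 members (points) at each age, with their median (line). The points lie mostly below 0 at PND 3 (39 of 40) and mostly above 0 at PND 10 (37 of 40), and on both sides at PND 42, and none passed the test at any age.

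The change from PND 3 to PND 10 differed between genotypes in the same direction for all 40 members, being higher in *Scnn1b*-Tg lungs by a median of 0.69. None passed the interaction test (0.01% of all genes did), and 24 had an unadjusted p below 0.05, against 3.81% of all genes in that direction. The lowest were *Rfc5* (0.76, SE 0.19, adjusted p = 0.406), *Pole2* (1.04, SE 0.28, adjusted p = 0.481) and *Gmnn* (0.94, SE 0.26, adjusted p = 0.481). Without WT PND 3 replicate 2 *Rfc5* (adjusted p = 0.0270) and *Pole2* (adjusted p = 0.0463) passed, beside 0.11% of all genes, and the median was 0.88. With array weights *Gmnn* (adjusted p = 0.0458), *Rfc5* (adjusted p = 0.0462) and *Pole2* (adjusted p = 0.0479) passed, beside 0.155% of all genes. Without *Scnn1b*-Tg PND 10 replicate 3 38 of 40 kept that sign and the median was 0.46. From PND 0 to PND 3 the median difference was -0.23, none passed (0% of all genes did) and 3 had an unadjusted p below 0.05 in the lower direction (1.85% of all genes). From PND 10 to PND 42 it was -0.16, none passed (0.336%) and 1 had an unadjusted p below 0.05 (3.82% of all genes lower). These 3 intervals and the comparisons at PND 3 and PND 10 share arrays, so one low or high array enters several of them.

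Mitosis genes, which act later in the cell cycle, were listed for comparison. Of 14 with a row of their own, 10 rose in WT lungs by PND 3 (21.8% of all genes) and 4 of them 2-fold (1.88%), while 3 rose in *Scnn1b*-Tg lungs over those days, a share near the 25% of all genes. By PND 42 14 fell in each genotype (20% and 19.3% of all genes), 12 of them 2-fold. Their WT group mean was 6.18 at PND 3 and 6.24 at PND 10, where that of the members was 6.66 and 6.42. That order of the mitosis means rested on WT PND 3 replicate 2 (5.47). The other WT arrays of PND 3 (6.45 and 6.61) lay above all WT arrays of PND 10 (at most 6.37). *Cdk1*, the mitotic kinase, fell by 2.16 (SE 0.21, adjusted p = 1.48e-07) in WT and fell by 2.44 (SE 0.21, adjusted p = 4.41e-08) in *Scnn1b*-Tg lungs, and *Ccnb2*, a mitotic cyclin, fell by 2.57 (SE 0.31, adjusted p = 2.89e-06) and fell by 2.75 (SE 0.31, adjusted p = 1.47e-06). Arrays that stood apart in the replication genes did so here as well. WT PND 3 replicate 2 averaged 5.47 over the mitosis genes beside 6.45 and 6.61 in the other WT arrays of that age, and 6.26 over the 40 members beside 6.9 and 6.83. *Scnn1b*-Tg PND 10 replicate 3 averaged 7.06 beside 6.27 and 6.25, and 7 over the members beside 6.52 and 6.46. Some lists of markers of other cells also differed in the low arrays, and those given are a part of the lists read. With 3 arrays per group, some array is lowest and some array highest in every list. Over the WT arrays of PND 3 the endothelial markers spanned 8.13 to 8.29, the T cell markers 4.43 to 4.7 and the B cell markers 6.16 to 6.45. Over the *Scnn1b*-Tg arrays of PND 3 the erythroid precursor markers spanned 5.68 to 6.11. In WT PND 3 replicate 2 the 4 neutrophil markers averaged 8.09 beside 7.16 and 6.31 in the other WT arrays of that age, the 4 macrophage markers 7.05 beside 6.42 and 6.55, the 4 leukocyte markers 8.36 beside 7.98 and 7.69, and the 5 erythroid precursor markers 5.45 beside 5.74 and 6.53. In *Scnn1b*-Tg PND 3 replicate 1 the neutrophil markers averaged 7.31 beside 6.66 and 6.96, the macrophage markers 7.46 beside 6.77 and 6.59, and the leukocyte markers 7.86 beside 7.52 and 7.74. In *Scnn1b*-Tg PND 10 replicate 3 the neutrophil markers averaged 6.65 beside 6.63 and 6.1, and the macrophage (7.67) and leukocyte (8.01) markers lay between those of the other arrays. The part of these cells in the levels of the members was not tested.

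**Figure D5:**
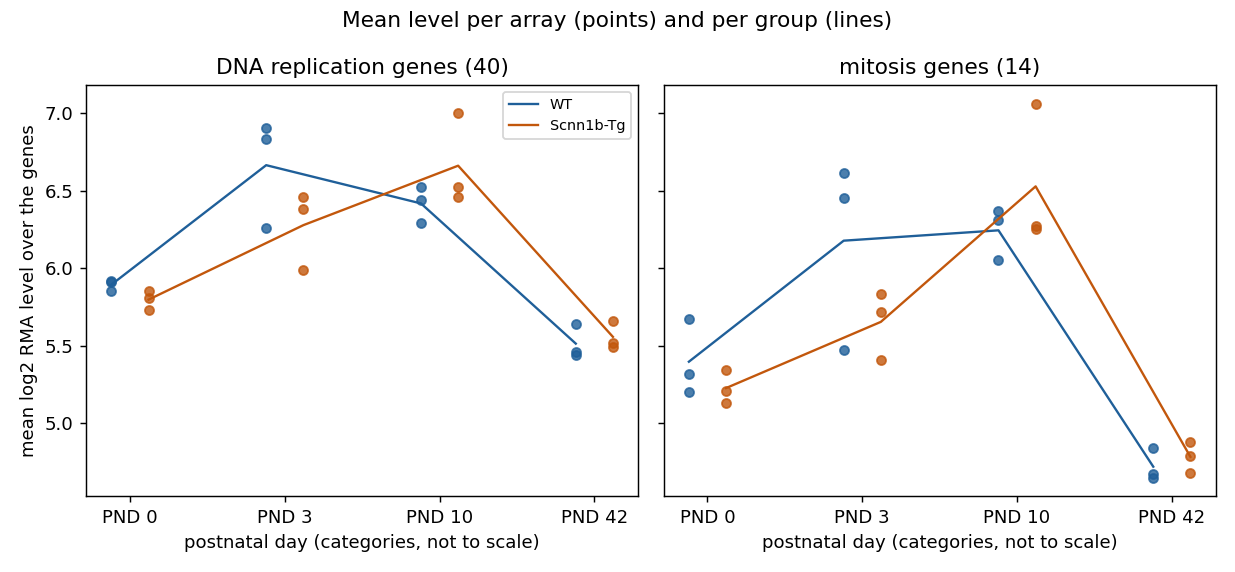
Mean log2 level over the 40 members (left) and over 14 mitosis genes (right) in each array (points) and group (lines) by age. WT PND 3 replicate 2 lies at 6.26 for the members and 5.47 for mitosis genes, below the other WT arrays of that age in both panels, and *Scnn1b*-Tg PND 10 replicate 3 lies above its group.

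Other genes of the replication fork (20 measured) gave 11 that rose and 1 that fell in WT lungs by PND 3 (21.8% and 24.2% of all genes), and 13 that fell in WT and 17 in *Scnn1b*-Tg lungs by PND 42 (20% and 19.3%). *Rnaseh2b*, a subunit of the enzyme that removes ribonucleotides from DNA, rose by 1.24 (SE 0.14, adjusted p = 4.62e-07), and *Rpa3*, the small RPA subunit, by 1.15 (SE 0.17, adjusted p = 1.51e-05). *Top1*, a topoisomerase that also serves transcription, fell by 1.17 (SE 0.20, adjusted p = 8.03e-05) over those days. *Top2a*, the topoisomerase of dividing cells, fell by 2.58 (SE 0.33, adjusted p = 4.65e-06) in WT lungs from PND 10 to PND 42. Chromatin assembly genes (8 measured) gave 5 that rose by PND 3 and 6 that fell by PND 42 in WT lungs (21.8% and 20% of all genes), and 7 that fell in *Scnn1b*-Tg lungs (19.3%), among them *Asf1b*, a histone chaperone (WT change 1.61, SE 0.25, adjusted p = 2.03e-05 and then -1.63, SE 0.25, adjusted p = 3.75e-05).

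Other genes of origin licensing and firing (13 measured) did not rise with the members by limma: none rose and 2 fell in WT lungs by PND 3 (21.8% and 24.2% of all genes), and none had an unadjusted p below 0.05 in the rising direction. By PND 42 8 of them fell in WT lungs (20% of all genes), the only 2-fold fall being that of *Dbf4*, the activator of the kinase that fires origins (-1.35, SE 0.23, adjusted p = 1.11e-04). Genes of E2F and S-phase entry (25 measured) had 7 higher and 8 lower in WT lungs by PND 3, shares near the 21.8% of all genes that rose and the 24.2% that fell. Cyclin E genes rose (*Ccne2*, 1.5, SE 0.29, adjusted p = 2.27e-04, and *Ccne1*, 1.12, SE 0.22, adjusted p = 2.64e-04), while *Cdk6* fell by 1.38 (SE 0.18, adjusted p = 1.88e-06) and *Rb1*, the E2F repressor, fell by 0.88 (SE 0.16, adjusted p = 1.11e-04). By PND 42 11 fell and 1 rose in WT lungs (20% and 9.86% of all genes), with *Ccna2*, the cyclin of S phase, lowest (-2.79, SE 0.27, adjusted p = 1.53e-07). Among other nucleotide genes (10 measured) *Dtymk*, the thymidylate kinase next in line after Tyms and Tk1, rose by 1.37 (SE 0.18, adjusted p = 3.69e-06) and fell by 1.66 (SE 0.18, adjusted p = 9.34e-07), and *Samhd1*, which degrades the building blocks, went the other way (-0.78, SE 0.17, adjusted p = 9.73e-04 and then 0.69, SE 0.17, adjusted p = 0.00441). Brakes on the cycle (10 measured) gave 3 higher and 4 lower in WT lungs by PND 3, against the same shares of all genes, with *Cdkn1b*, the inhibitor p27, lower (-0.98, SE 0.20, adjusted p = 3.71e-04). By PND 42 2 were higher and 3 lower there, where 9.86% of all genes were higher and 20% lower. Among them *Gas1*, a growth-arrest gene, was higher (1.00, SE 0.16, adjusted p = 8.87e-05) and *Cdkn2c* lower (-1.18, SE 0.25, adjusted p = 0.00115).

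Marker genes of lung cells and of tissues that a lobe could carry along were read beside these results. The lung's own markers were detected, alveolar type II markers averaging 10.59 to 11.26 over the groups and club cell markers 10.13 to 11.75. Thymus markers, the mark of a dividing tissue next to the lung, averaged 3.78 to 4.37 and germinal centre markers 4.21 to 4.48, near the level of olfactory receptor genes, with no marker of either falling from PND 10 to PND 42. Of all genes, 20% fell over that interval in WT and 19.3% in *Scnn1b*-Tg lungs. Of the erythroid precursor markers 2 of 5 fell by PND 42 in each genotype, beside those shares. Their group means went from 6.16 to 5.32 in WT and from 5.95 to 5.14 in *Scnn1b*-Tg lungs. By PND 3 1 of 5 rose, near the share of all genes (21.8% in WT and 25% in *Scnn1b*-Tg lungs). From PND 0 to PND 3 their group means went from 5.92 to 5.91 in WT and from 5.7 to 5.94 in *Scnn1b*-Tg lungs. Heart and skeletal muscle markers averaged 6.31 at PND 10 and 5.75 at PND 42 in WT lungs and 6.53 and 5.53 in *Scnn1b*-Tg lungs, with 1 and 3 of 6 falling (20% and 19.3% of all genes). Endothelial markers moved against the members from PND 0 to PND 3, 4 of 4 falling in each genotype (9.41 to 8.22 in WT and 9.17 to 8.18 in *Scnn1b*-Tg group means), as did 4 of 4 fibroblast markers (9.57 to 8.57 and 9.39 to 8.49). In WT lungs 24.2% of all genes fell over those days, a share not counted in *Scnn1b*-Tg lungs. Other lists went up with the members. WT group means rose for B cell (5.3 to 6.27), T cell (3.83 to 4.53) and leukocyte markers (7.52 to 8.01). Those of club cell (10.75 to 11.21) and smooth muscle markers (8.68 to 8.95) rose as well. In *Scnn1b*-Tg lungs the same lists rose, smooth muscle least (8.58 to 8.66). Alveolar type II markers went down in both (11.22 to 10.72 and 11 to 10.72), and further lists are not given. The group mean of the macrophage markers rose in *Scnn1b*-Tg lungs from 7.75 at PND 10 to 9.46 at PND 42, while the members fell. The part of such shifts in cell makeup in the changes of the members was not tested.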

How the data were processed

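Whole-lung RNA of 24 pools was measured on Mouse Gene 1.0 ST arrays (Affymetrix). The authors normalized the arrays together by RMA in Partek (version 6.5 in the submitters' notes) and deposited log2 values, 1 per probe set and array. Of 35556 rows, 21789 named exactly 1 gene, 1621 named several and 12146 none by the platform annotation, and 21698 of the 21789 were matched to the RefSeq gene table with 0 symbols changed. A gene was read from its brightest row among those naming it alone, so 19938 genes were counted.

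A linear model with 8 group means was fitted to all 21789 rows with limma 3.58.1 (R 4.3.3, 16 residual degrees of freedom) and moderated variances, with Benjamini-Hochberg adjustment within each comparison. A gene passed where its adjusted p was 0.05 or lower, and was called 2-fold where the change was also at least 2-fold. A change is the difference of group means on the log2 scale with its standard error (SE). Group and genotype came from the labels. The replicates are pools, and p-values measure the spread between these pools, whose number limits the precision. RMA sets the arrays to a common distribution, so a change shared by most genes would not be seen, and signal on these arrays compresses changes of dim genes.

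The members and the other gene lists were chosen with earlier results of these data known, so their counts are descriptions set beside the share of all genes. Members were named with values where they were called, had the lowest p between genotypes (up to 6 an age), or lay at the level of undetected genes, every array being given for up to 4 members of a role. From the other lists, up to 4 genes per comparison and direction with the lowest p could be named. Letters were searched on both strands in RefSeq promoter windows with Python 3.11.15. The fit was tested on simulated data. Alternatives were no moderation, only the arrays compared, an intensity trend with a robust prior, array weights (statmod 1.5.0), the replicate number as a block, a filter on dim rows (a mean above 5 in at least 1 group), repeated quantile normalization, all rows, subtracted array medians, 1 row per gene, no fold threshold, 1.5-fold, and each array left out.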

Additional observations from a re-analysis of the deposited data

How the results depend on the processing

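Of 69 pairs of a member and an age comparison called 2-fold, none changed sign under any alternative run. Values kept their call 926 times and lost it 21 times under settings other than leaving out 1 array (5 with array weights, 7 with repeated quantile normalization and 9 with 3 arrays left out together), and 378 and 36 times when 1 array was left out. With array weights 1 member was 2-fold lower in WT lungs from PND 0 to PND 42, 1 was higher in *Scnn1b*-Tg lungs from PND 3 to PND 10, and 2 had a 2-fold higher change from PND 3 to PND 10 in *Scnn1b*-Tg than in WT lungs. Repeated quantile normalization gave 17 members higher in WT by PND 3, 0 lower from PND 0 to PND 42 in WT, 7 higher from PND 0 to PND 3 in *Scnn1b*-Tg and 20 higher from PND 0 to PND 10 in *Scnn1b*-Tg lungs. With WT PND 3 replicate 2, *Scnn1b*-Tg PND 3 replicate 1 and *Scnn1b*-Tg PND 10 replicate 3 left out, a choice made after seeing the data, these were 17 (WT, PND 0 to PND 3), 1 lower (WT, PND 3 to PND 10) and 8 (*Scnn1b*-Tg, PND 0 to PND 10), and the *Scnn1b*-Tg median from PND 3 to PND 10 was 0.07. No 2-fold share of all genes was counted under these settings, so the counts describe the members alone. The cause of these moves was not tested.

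Lower fold thresholds raised the counts by construction, and the share of all genes was not counted at 1.5-fold. With no threshold and with 1.5-fold in WT lungs the counts were 30 and 22 higher (PND 0 to PND 3), 1 and 1 lower (PND 3 to PND 10), 33 and 31 lower (PND 10 to PND 42), 21 and 15 higher (PND 0 to PND 10) and 14 and 11 lower (PND 0 to PND 42, with 1 higher at no threshold). In *Scnn1b*-Tg lungs they were 19 and 14 higher, 2 and 2 higher, 35 and 34 lower, 36 and 28 higher, and 7 and 4 lower (with 1 higher at no threshold) over the same intervals.

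Leaving out 1 array gave 9 to 17 members 2-fold higher in WT lungs from PND 0 to PND 3, 12 to 17 lower from PND 10 to PND 42, 2 to 4 higher from PND 0 to PND 10 and 1 to 3 lower from PND 0 to PND 42. In *Scnn1b*-Tg lungs it gave 2 to 6, 18 to 26, 8 to 14 and 0 to 1 in that order, and 0 to 1 higher from PND 3 to PND 10. Between genotypes it gave 0 to 1 lower at PND 3 and 0 to 1 for the change from PND 3 to PND 10. The median between genotypes at PND 10 ranged from 0.07 to 0.33, and that of the change from PND 10 to PND 42 from -0.31 to 0.05. The 2-fold share of all genes was not counted with 1 array left out.

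With the replicate number as a block all 69 calls were kept and 0 members passed between genotypes. The labels' numbers do not show pairing: of 42 same-numbered pairs 9 correlated above 0.1 (-0.26 to 0.30), and 14 of 42 arrays correlated best with their own number. Subtracting array medians moved the median of all genes from 0.07 to 0.17 (WT, PND 0 to PND 3), from 0.07 to 0.22 (*Scnn1b*-Tg, PND 0 to PND 3) and from 0.06 to 0.20 (*Scnn1b*-Tg, PND 0 to PND 10). The 2 dim members, *Orc1* and *Cdc6*, lie where these arrays measure change least well.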
